A study of Mus musculus with 72 samples.

Results

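Arntl, Clock and Npas2 encode the activators of the circadian clock, and they were followed on every array of a mouse liver series as 3 genes of the 22180 that carried a single symbol in the platform annotation. Members were the probe sets annotated with 1 of these symbols alone, and where a gene has several, the one with the highest mean is used. Each of the 3 had 1 such probe set, 17481960 for Arntl, 17448960 for Clock and 17212087 for Npas2, and all 3 Entrez identifiers matched the RefSeq gene table. All 3 were among the 13308 genes tested after the lowest 40% were left out.

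BMAL1, the product of Arntl, pairs with CLOCK, and the pair binds E-box sequences and switches on the Per, Cry, Nr1d1 and Dbp genes. PER and CRY proteins then block the pair, and REV-ERB proteins (from Nr1d1 and Nr1d2) repress Arntl, Clock and Npas2, while ROR receptors activate them through the same response element, called the RORE. NPAS2 is the closest relative of CLOCK and can take its place as the partner of BMAL1. In liver these factors set the daily timing of metabolic genes. SIRT6 and SIRT1 are NAD-dependent deacylases, and both have been reported to associate with the CLOCK and BMAL1 pair.

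Livers were taken every 4 h from mice kept in 12 h of light and 12 h of dark, at ZT (zeitgeber time, counted in hours from lights on) 0, 4, 8, 12, 16 and 20, with 3 arrays for each group and 72 in all. The first cohort, of a strain given as 129 mixed, held mice labelled SIRT6 KO, with a liver-specific deletion, and wild-type (WT) mice. The second, of strain C57BL/6, held mice labelled SIRT1 KO, again liver-specific, and WT mice. The 4 sets of 18 arrays are therefore labelled SIRT6 KO, WT of 129 mixed background, labelled SIRT1 KO and WT of C57BL/6 background. The sources used here give no age and no driver for the deletions. The labels do not call replicates separate mice, so a p-value here measures the spread between samples that may be technical.

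The deposited values are probe set intensities on a linear scale, and levels are given here as log2(intensity + 16), a scale that understates changes of dim probe sets. A level is set against other times and sets of the same probe set only. Array medians spanned 43.9 to 52.9 for the SIRT6 cohort, and 44.4 to 53.8 for the SIRT1 one. The 99th percentiles were 3217 to 3430 and 3440 to 3641 in the same order and did not overlap, so levels of the 2 cohorts are not compared directly. The Sirt6 probe set was higher in livers labelled SIRT6 KO than in their WT, at 7.89 ± 0.10 and 7.32 ± 0.18 (SD, n = 18 each), a difference of 0.57 ± 0.05 (SE, limma, adjusted p = 8.9e-09), which goes against the label. The Sirt1 probe set read 8.74 ± 0.11 in livers labelled SIRT1 KO and 8.74 ± 0.18 in their WT (SD, n = 18 each, limma, adjusted p = 0.961). The sources used here do not place these probes against the deletions, so neither value settles the label. All 8 hepatocyte markers were above the filter on low values on every array, with albumin (Alb) at 13.27 to 13.55. In whole liver, fewer cells of a type and less RNA per cell cannot be told apart.

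The promoter sequences of the 3 genes are shown because the RORE and the E-box are the elements through which the clock is known to act on these and their target genes. RefSeq windows on GRCm38.p6 run from 250 bases before to 50 bases after an annotated start. There were 2 windows for Arntl, 3 for Clock and 1 for Npas2, and 1 per gene is printed, 5′ to 3′ on the gene's strand, with the motifs found in capitals. The Arntl window is chr7:113207261-113207560 (plus strand), the Clock window chr5:76304743-76305042 (minus strand) and the Npas2 window chr1:39194022-39194321 (plus strand).
Arntl: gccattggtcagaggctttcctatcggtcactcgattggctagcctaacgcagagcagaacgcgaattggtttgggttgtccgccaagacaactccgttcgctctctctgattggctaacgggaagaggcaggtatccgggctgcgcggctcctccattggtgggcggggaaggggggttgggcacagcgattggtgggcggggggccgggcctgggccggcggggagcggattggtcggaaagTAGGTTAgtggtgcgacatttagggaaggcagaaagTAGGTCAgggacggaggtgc
Clock: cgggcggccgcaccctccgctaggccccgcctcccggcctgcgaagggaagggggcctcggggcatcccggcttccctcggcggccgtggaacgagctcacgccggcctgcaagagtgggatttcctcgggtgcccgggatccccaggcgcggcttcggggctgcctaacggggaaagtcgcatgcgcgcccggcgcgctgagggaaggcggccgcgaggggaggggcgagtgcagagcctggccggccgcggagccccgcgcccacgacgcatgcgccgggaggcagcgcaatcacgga
Npas2: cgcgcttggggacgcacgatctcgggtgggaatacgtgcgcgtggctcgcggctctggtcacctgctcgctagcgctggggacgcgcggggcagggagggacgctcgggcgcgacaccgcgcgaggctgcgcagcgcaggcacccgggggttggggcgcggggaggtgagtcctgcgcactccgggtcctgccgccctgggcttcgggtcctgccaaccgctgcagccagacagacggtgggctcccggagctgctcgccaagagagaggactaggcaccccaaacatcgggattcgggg
Both strands of each window were searched for 4 motifs. They were the RORE core TAGGTCA, the related core written TGGGTCA, a variant TAGGTTA that was added after the Arntl window had been read, and the E-box sequence CACGTG. The first core began at position +31 of the Arntl window counted from the start (genome position 113207541) and the variant at position -6 (113207505). The variant site also lies in the other Arntl window, chr7:113207215-113207514, which overlaps the printed one. None of the 4 motifs was found in the Clock and Npas2 windows, which says only that these letters are not in those 300 bases. Of 32851 windows of this length, 2.61% held the first core and 3.98% the second. The variant was in 1.44% of them and the E-box sequence in 7.15%. GC content was 61.7% in the printed Arntl window, 76.3% in that of Clock and 72.7% in that of Npas2.

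Arntl, the clock gene whose loss alone stops rhythms in mice, was high around lights on and lowest at ZT8 in all 4 sets. In livers labelled SIRT6 KO the 3 arrays read 9.10, 9.39 and 9.30 at ZT0, 8.75, 8.06 and 8.63 at ZT4, 5.63, 5.43 and 6.01 at ZT8, 7.88, 6.00 and 7.18 at ZT12, 8.60, 9.10 and 8.89 at ZT16 and 9.37, 9.27 and 9.23 at ZT20. The WT livers of 129 mixed background read 9.15, 9.43 and 8.97 at ZT0, 8.91, 7.67 and 8.60 at ZT4, 5.91, 5.67 and 6.00 at ZT8, 7.24, 6.79 and 6.77 at ZT12, 8.71, 8.89 and 8.84 at ZT16 and 9.17, 9.19 and 9.29 at ZT20. The 2 genotypes overlapped at every time in this cohort, and the arrays labelled SIRT6 KO were most spread at ZT12.

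Livers labelled SIRT1 KO gave Arntl levels of 9.27, 9.38 and 9.45 at ZT0, 9.17, 8.32 and 8.17 at ZT4, 5.16, 5.66 and 5.45 at ZT8, 7.53, 6.63 and 6.61 at ZT12, 8.30, 9.12 and 8.27 at ZT16 and 9.13, 9.30 and 9.35 at ZT20. The C57BL/6 WT livers gave 9.48, 9.43 and 9.45 at ZT0, 7.93, 8.73 and 9.38 at ZT4, 5.96, 5.61 and 6.00 at ZT8, 6.25, 6.43 and 5.92 at ZT12, 8.69, 8.85 and 8.28 at ZT16 and 9.48, 9.10 and 9.10 at ZT20. Here the genotypes overlapped at every time but ZT12, where all 3 arrays labelled SIRT1 KO were above all 3 WT arrays. On the log2(intensity + 16) scale the highest mean was above the lowest by 3.60 in livers labelled SIRT6 KO, 3.35 in their WT, 3.94 in livers labelled SIRT1 KO and 3.60 in their WT. Intensities at ZT8 were 19.8 to 48.6, near or below the array medians, and were not shown to be above background, so no linear fold is given.

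In each set the fall of Arntl from ZT4 to ZT8 was larger than any rise between neighbouring times. The sizes were closest in C57BL/6 WT livers, with a fall of -2.82 and a rise of 2.40 from ZT12 to ZT16. Between ZT4 and ZT8 the group means changed by -3.13 to -2.53 on the log2 scale over the 4 sets, with no overlap of arrays between the times in 4 of 4 sets. Between ZT12 and ZT16 they rose by 1.64 to 2.40, again without overlap in 4 of 4 sets. The step from ZT8 to ZT12 was 0.35 to 1.5, and arrays of the 2 times were apart in 2 of 4 sets. Between ZT20 and ZT0 they overlapped in all 4, so those 2 times did not differ beyond their spread. In order of means the times ran ZT20, 0, 16, 4, 12 and 8 in both sets of the SIRT6 cohort, ZT0, 20, 16, 4, 12 and 8 in livers labelled SIRT1 KO and ZT0, 20, 4, 16, 12 and 8 in their WT.

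**Figure D1:**
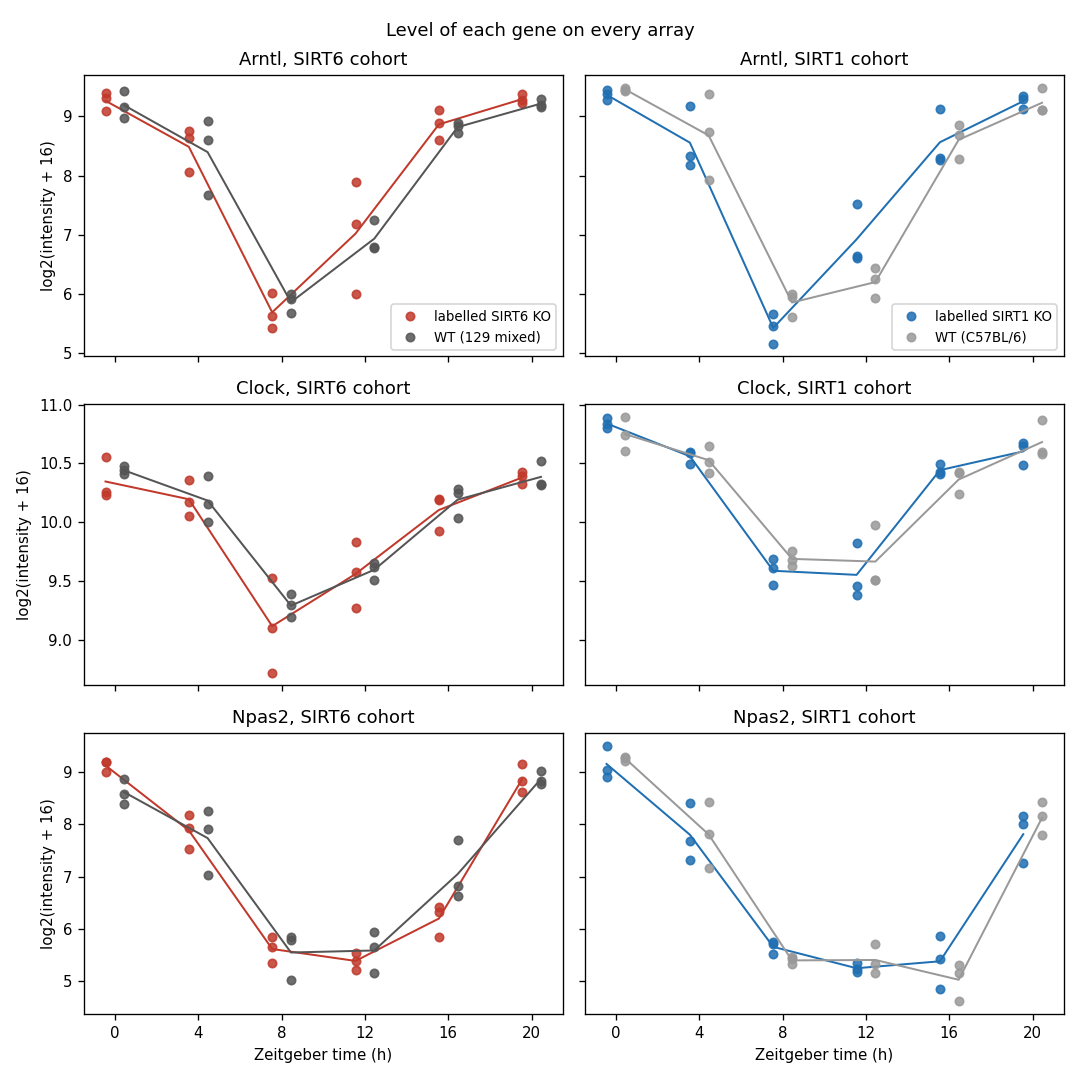
Level of Arntl, Clock and Npas2, log2(intensity + 16) on the vertical axis, against zeitgeber time in hours, with 1 point per array, lines through the means of 3 arrays, and points of the 2 genotypes set slightly apart. Arntl is lowest at ZT8 in all 4 sets, and Npas2 stays low to ZT16 in both sets of the SIRT1 cohort.

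Clock, which encodes the acetyltransferase partner of BMAL1, followed a similar course over a much smaller range. Means in livers labelled SIRT6 KO were 10.35 ± 0.18, 10.19 ± 0.15, 9.12 ± 0.40, 9.56 ± 0.28, 10.10 ± 0.15 and 10.38 ± 0.05 at ZT0, 4, 8, 12, 16 and 20 (SD, n = 3 each). In WT livers of 129 mixed background they were 10.44 ± 0.03, 10.18 ± 0.20, 9.29 ± 0.10, 9.60 ± 0.08, 10.19 ± 0.13 and 10.39 ± 0.11 at the same times (SD, n = 3 each). Both genotypes were lowest at ZT8 and highest at ZT20 or ZT0, and their arrays overlapped at all 6 times.

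Livers labelled SIRT1 KO had Clock means of 10.84 ± 0.04, 10.56 ± 0.06, 9.59 ± 0.11, 9.55 ± 0.23, 10.44 ± 0.05 and 10.60 ± 0.10 at these 6 times in order (SD, n = 3 each). The C57BL/6 WT means were 10.75 ± 0.15, 10.53 ± 0.11, 9.69 ± 0.06, 9.67 ± 0.27, 10.36 ± 0.10 and 10.68 ± 0.16 (SD, n = 3 each). In this cohort ZT8 and ZT12 were nearly level, and arrays of these 2 times overlapped. The linear intensity at the highest time was 2.38 times that at the lowest in livers labelled SIRT6 KO, 2.25 times in their WT, 2.45 times in livers labelled SIRT1 KO and 2.12 times in their WT. As for Arntl, the drop from ZT4 to ZT8 (-1.08 to -0.84) and the rise from ZT12 to ZT16 (0.54 to 0.89) separated the arrays in 4 of 4 sets.

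Npas2, the gene of the alternative partner of BMAL1, stayed low for longer and rose later. The arrays labelled SIRT6 KO read 9.0, 9.19 and 9.20 at ZT0, 8.18, 7.54 and 7.94 at ZT4, 5.35, 5.65 and 5.85 at ZT8, 5.40, 5.55 and 5.23 at ZT12, 5.85, 6.42 and 6.33 at ZT16 and 8.62, 8.84 and 9.15 at ZT20. Their WT read 8.59, 8.88 and 8.39 at ZT0, 8.26, 7.04 and 7.92 at ZT4, 5.84, 5.03 and 5.79 at ZT8, 5.95, 5.17 and 5.66 at ZT12, 6.82, 7.71 and 6.63 at ZT16 and 8.77, 8.83 and 9.02 at ZT20. The groups did not overlap at ZT0, where all 3 arrays labelled SIRT6 KO were higher, nor at ZT16, where all 3 were lower.

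In livers labelled SIRT1 KO, Npas2 read 8.91, 9.51 and 9.05 at ZT0, 8.40, 7.69 and 7.32 at ZT4, 5.52, 5.72 and 5.75 at ZT8, 5.17, 5.35 and 5.23 at ZT12, 5.43, 5.86 and 4.86 at ZT16 and 7.26, 8.02 and 8.16 at ZT20. In C57BL/6 WT livers it read 9.27, 9.30 and 9.21 at ZT0, 7.17, 7.82 and 8.43 at ZT4, 5.46, 5.42 and 5.32 at ZT8, 5.72, 5.34 and 5.16 at ZT12, 5.16, 5.32 and 4.62 at ZT16 and 8.42, 8.15 and 7.81 at ZT20. The genotypes overlapped except at ZT8, where the 3 arrays labelled SIRT1 KO were slightly higher. The highest mean was above the lowest by 3.74 in livers labelled SIRT6 KO, 3.32 in their WT, 3.91 in livers labelled SIRT1 KO and 4.23 in their WT, on the log2(intensity + 16) scale. At ZT8, at ZT12 and, in the SIRT1 cohort, at ZT16 the intensity of Npas2 was 8.52 to 45.6, close to the added 16 and not shown to be above background, so these differences and the fitted amplitudes depend on that constant.

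The rise of Npas2 separated it from the other pair. From ZT12 to ZT16 its means moved by between -0.38 and 1.46, and arrays of the 2 times were apart only in the 2 sets of the SIRT6 cohort. From ZT16 to ZT20 they rose by 1.82 to 3.10 with no overlap in 4 of 4 sets. At ZT16, Arntl had reached 88.1% of the way from its lowest to its highest mean in livers labelled SIRT6 KO, 88.1% in their WT, 79.6% in livers labelled SIRT1 KO and 76.4% in their WT. For Clock these shares were 78.1%, 78.3%, 69.2% and 64.4% in the same order of sets. Npas2 stood at 21.7%, 45.1%, 3.39% and 0%, the last because ZT16 was its lowest time in C57BL/6 WT livers.

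**Figure D2:**
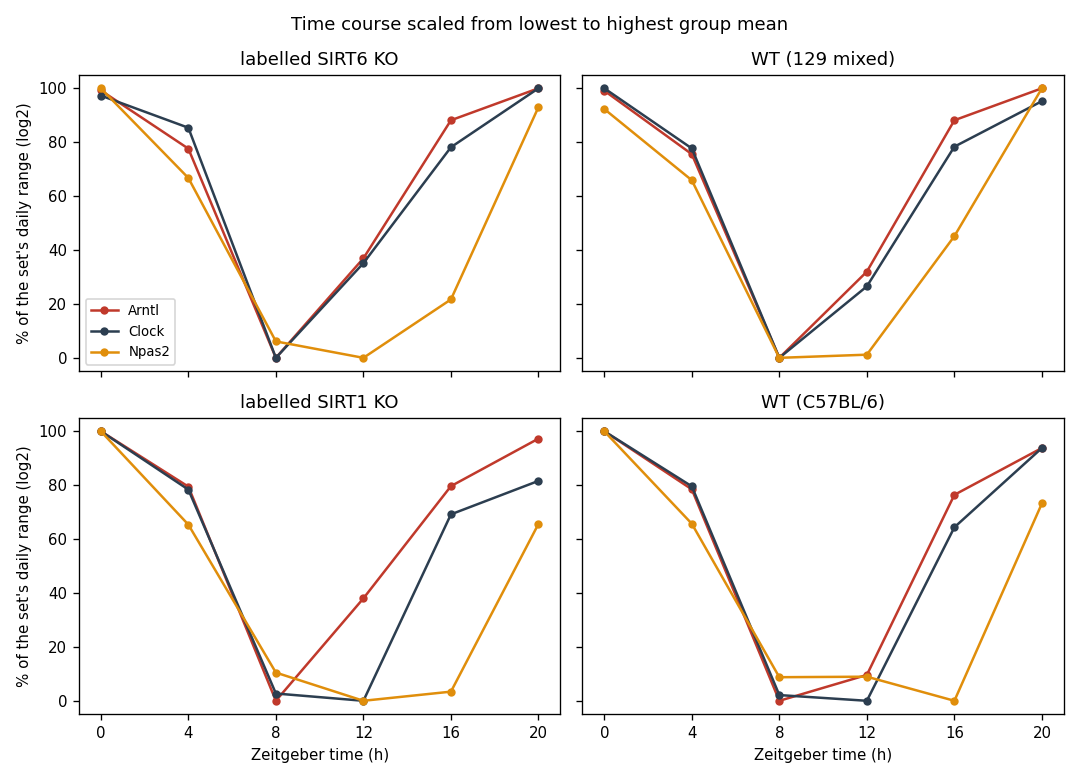
Group mean of each gene as a percentage of the way from its lowest to its highest group mean (log2) in that set, against zeitgeber time in hours, 1 panel per set. At ZT16 Arntl is at 76.4% to 88.1% and Npas2 at 0% to 45.1%.

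A 24 h cosine was fitted to the 18 arrays of each set, with the amplitude taken as fitted peak minus trough in log2 units and the test as limma's moderated F adjusted over 13308 genes. All 3 genes were rhythmic in all 4 sets, against a background of 10.6% of genes in livers labelled SIRT6 KO, 10.1% in their WT, 23.2% in livers labelled SIRT1 KO and 18.3% in their WT. Arntl had amplitudes of 3.45 ± 0.46, 3.30 ± 0.38, 3.65 ± 0.47 and 3.83 ± 0.40 (SE, n = 18 each) in the sets labelled SIRT6 KO, 129 mixed WT, labelled SIRT1 KO and C57BL/6 WT, with adjusted p of 0.000184, 4.48e-05, 6.93e-06 and 1.02e-06. Its fitted peaks, in that order, were at ZT 21.2 ± 0.51, 21.2 ± 0.44, 21.5 ± 0.49 and 22 ± 0.40 (SE). Arntl ranked 6th, 10th, 6th and 6th by amplitude among all genes tested.

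The amplitude of Clock was much smaller on the log2 scale. It came to 1.19 ± 0.20, 1.12 ± 0.13, 1.34 ± 0.15 and 1.21 ± 0.13 (SE, n = 18 each) in the same order of sets, with limma's adjusted p of 0.00125, 6.22e-05, 1.77e-06 and 1.94e-06. Its peaks fell at ZT 21.7 ± 0.63, 21.7 ± 0.44, 22.5 ± 0.42 and 22.4 ± 0.40 (SE). In each set the Clock amplitude was below that of Arntl, with differences of -2.26 (95% interval -2.96 to -1.56), -2.18 (-2.76 to -1.59), -2.31 (-3.13 to -1.49) and -2.62 (-3.36 to -1.88).

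Npas2 was among the strongest rhythms measured, with amplitudes of 4.23 ± 0.22, 3.68 ± 0.30, 4.13 ± 0.31 and 4.40 ± 0.40 (SE, n = 18 each) and ranks 2, 7, 5 and 4 by amplitude. Limma's adjusted p was 3.91e-09, 5.13e-06, 1.16e-08 and 1.40e-07, and its p was the smallest of all 13308 genes in livers labelled SIRT6 KO. Peaks lay at ZT 23.2 ± 0.20, 22.4 ± 0.31, 0.142 ± 0.29 and 0.026 ± 0.35 (SE). The difference in amplitude from Arntl was 0.79, 0.38, 0.48 and 0.58, and all 4 of these 95% intervals reached below 0. The cosine took 91.7% to 97.8% of the variance between times for Npas2, 84.4% to 89.4% for Arntl and 83.1% to 92.9% for Clock.

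Npas2 peaked after Arntl in every set. The lag was 1.97 h (95% interval 0.82 to 3.11) in livers labelled SIRT6 KO, 1.13 h (0.34 to 1.92) in their WT, 2.63 h (1.56 to 3.71) in livers labelled SIRT1 KO and 2.02 h (0.85 to 3.19) in their WT, from the joint fit of both genes on the same 18 arrays. Between Clock and Arntl the lag was 0.47 h (-0.36 to 1.30), 0.46 h (-0.04 to 0.95), 0.97 h (0.18 to 1.77) and 0.43 h (-0.37 to 1.24), so only the third interval stayed above 0. Npas2 followed Clock by 1.5 h (0.10 to 2.89), 0.68 h (-0.21 to 1.56), 1.66 h (0.47 to 2.85) and 1.58 h (0.34 to 2.82). The interval of 1.5 h reached 0 without any 1 of 7 arrays labelled SIRT6 KO (ZT0 replicates 2 and 3, ZT8 replicates 2 and 3, and ZT16 replicates 1, 2 and 3), with lags of 1.22 to 1.86 h over all 18 omissions. With samples 4 h apart, these times rest on the shape of the cosine. The intervals are for single lags and were not adjusted for the 12 computed.

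**Figure D3:**
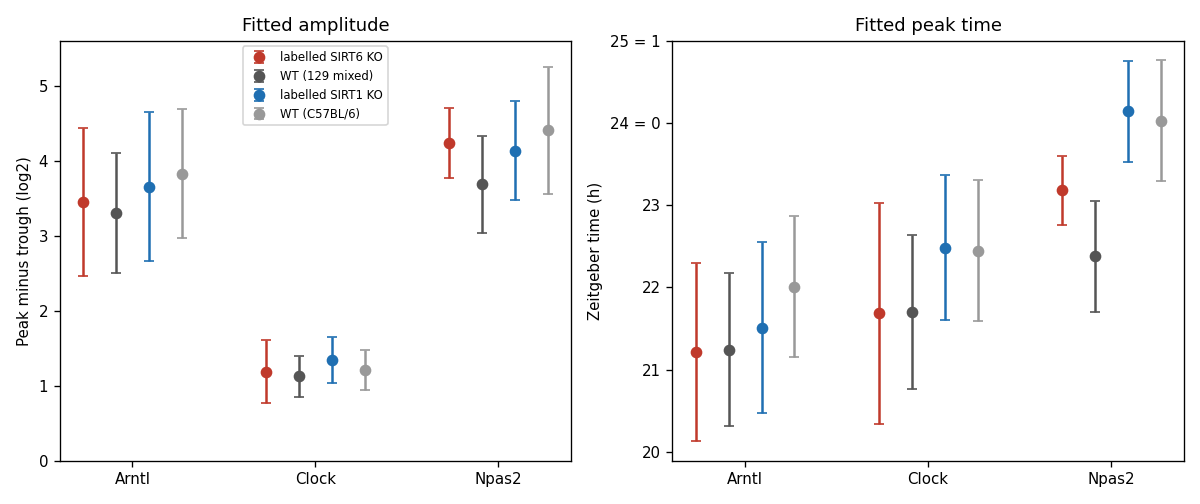
Fitted amplitude (log2 peak minus trough, left) and fitted peak time (zeitgeber time in hours, right; 24 equals 0) of the 3 genes in the 4 sets, with 95% intervals from 18 arrays each. Clock amplitudes lie between 1.12 and 1.34, and the Npas2 peak is the latest of the 3 in each set.

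Neither label changed the daily average of the 3 genes past the threshold (0 of 3 in each cohort by limma, and 0 of 3 at an unadjusted p under 0.05). Livers labelled SIRT6 KO minus their WT gave 0.03 ± 0.12 for Arntl (SE, 95% interval -0.22 to 0.29, adjusted p = 0.943), -0.06 ± 0.06 for Clock (-0.19 to 0.06, adjusted p = 0.649) and -0.05 ± 0.11 for Npas2 (-0.29 to 0.18, adjusted p = 0.885). Over all genes 6.61% were called in this contrast. Livers labelled SIRT1 KO minus their WT gave 0.01 ± 0.11 for Arntl (-0.22 to 0.24, adjusted p = 0.970), -0.01 ± 0.04 for Clock (-0.11 to 0.08, adjusted p = 0.889) and 0.01 ± 0.11 for Npas2 (-0.23 to 0.24, adjusted p = 0.988), where 2.27% of genes were called. The intervals leave room for an average Arntl level of 0.859 to 1.22 times WT in livers labelled SIRT6 KO and of 0.858 to 1.18 times WT in livers labelled SIRT1 KO. Over all genes tested the median difference was 0.0035 for the SIRT6 label and -0.0017 for the SIRT1 label.

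The 2 averaged effects did not differ past the threshold for any of the 3 genes. The effect of the SIRT6 label minus that of the SIRT1 label was 0.02 for Arntl (limma, 72 arrays, adjusted p = 0.965), -0.05 for Clock (adjusted p = 0.780) and -0.06 for Npas2 (adjusted p = 0.897), beside 5.76% of genes called.

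At single times 0 of 18 contrasts passed the threshold in each cohort by limma, with 1 of 18 in each at an unadjusted p under 0.05. Over all gene and time pairs 0.137% were called for the SIRT6 label and 0% for the SIRT1 label, and 7.9% and 8.22% had an unadjusted p under 0.05. In each cohort 2 of 18 contrasts (11.1%) had groups of 3 arrays that did not overlap, against 12.9% of all pairs for the SIRT6 label and 13% for the SIRT1 label. The members' share was thus near that of all genes.

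Of these, Npas2 at ZT16 was lower in livers labelled SIRT6 KO, at 6.20 ± 0.31 and 7.05 ± 0.58 in their WT (SD, n = 3 each), a difference of -0.85 ± 0.28 (SE, limma, unadjusted p = 0.0055, adjusted p = 0.348). At ZT0 it averaged 9.13 ± 0.11 in livers labelled SIRT6 KO and 8.62 ± 0.25 in their WT (SD, n = 3 each), a difference of 0.51 (limma, adjusted p = 0.708). Arntl at ZT12 was 6.92 ± 0.52 in livers labelled SIRT1 KO and 6.20 ± 0.26 in their WT (SD, n = 3 each), a difference of 0.72 ± 0.28 (SE, limma, unadjusted p = 0.014, adjusted p = 0.512). Npas2 at ZT8 differed by 0.26 in the SIRT1 cohort (limma, adjusted p = 0.847). The other 16 contrasts of each cohort stayed within a size of 0.20 for the SIRT6 label and 0.43 for the SIRT1 label, all with overlapping arrays.

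For Npas2 at ZT16 the effect of the SIRT6 label minus that of the SIRT1 label was -1.20 (95% interval -2.02 to -0.38, limma, unadjusted p = 0.0048, adjusted p = 0.267), the sole 1 of 18 such differences with an unadjusted p under 0.05. Over all pairs 9.76% had an unadjusted p under 0.05 and 0.134% were called, so 1 of 18 does not stand above the background.

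**Figure D4:**
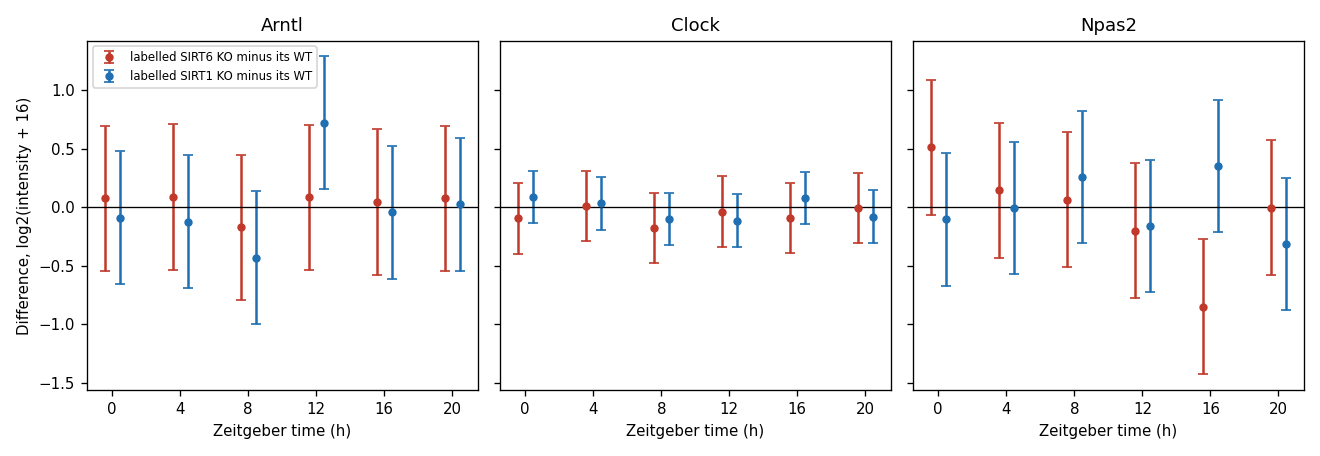
Livers labelled KO minus their WT at each zeitgeber time (hours), in log2(intensity + 16), with 95% intervals from the fit of 36 arrays per cohort. The interval excludes 0 for Npas2 at ZT16 in the SIRT6 cohort (-0.85) and for Arntl at ZT12 in the SIRT1 cohort (0.72), and neither passed the adjusted threshold.

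Nor did the rhythms differ past the threshold between labelled KO and WT (0 of 3 in each cohort by limma). At an unadjusted p under 0.05 1 of 3 genes differed for the SIRT6 label and 0 of 3 for the SIRT1 label, beside 0.00751% and 0% of all genes called after adjustment and 8.25% and 7.25% at the unadjusted level. That 1 was Npas2, whose peak in livers labelled SIRT6 KO was 0.80 h later than in their WT (95% interval 0.04 to 1.56 h) and whose amplitude was larger by 0.55 (-0.21 to 1.32), with an unadjusted p of 0.032 and an adjusted p of 0.567 (limma). This fit rests on the same arrays as the ZT0 and ZT16 values above. For Arntl the peak difference was -0.03 h (-1.40 to 1.34) and for Clock -0.02 h (-1.58 to 1.55), with adjusted p of 0.991 and 0.989.

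In the SIRT1 cohort Arntl peaked 0.50 h earlier in livers labelled SIRT1 KO than in their WT, a difference of -0.50 h (95% interval -1.79 to 0.79 h, limma, adjusted p = 0.893). The difference was 0.04 h for Clock (-1.14 to 1.22, adjusted p = 0.929) and 0.12 h for Npas2 (-0.80 to 1.03, adjusted p = 0.941). Amplitudes differed by -0.17, 0.13 and -0.27, with intervals on both sides of 0. The Clock interval holds a shift of 1 h in either direction, the Arntl interval holds 1 h earlier but not 1 h later, and the Npas2 interval 1 h later but not 1 h earlier.

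Between the 2 WT sets the estimated peak of Npas2 was farther apart than between either label and its WT. Npas2 in WT livers of 129 mixed background peaked 1.65 h before that in C57BL/6 WT livers (difference -1.65 h, 95% interval -2.60 to -0.70 h), with an unadjusted p of 0.0017 and an adjusted p of 0.124 (limma, 36 arrays), where 0.0827% of genes were called and 16.8% had an unadjusted p under 0.05. A test of the whole time course with 5 coefficients, added after the values had been seen, gave an adjusted p of 0.059 (unadjusted 4.42e-05), beside 0.0526% of genes called. Relative to the mean of its own set, Npas2 at ZT16 stood at -0.19 in 129 mixed WT and at -1.81 in C57BL/6 WT, and at ZT0 at 1.38 and 2.42. Livers labelled SIRT6 KO stood at -0.98 at ZT16 and 1.95 at ZT0, and those labelled SIRT1 KO at -1.46 and 2.31. Both labelled sets thus lay between the WT sets at these times.

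Arntl peaked 0.76 h earlier in 129 mixed WT than in C57BL/6 WT (difference -0.76 h, limma, adjusted p = 0.524), and Clock 0.74 h earlier (difference -0.74 h, adjusted p = 0.633), so 0 of 3 genes passed. Arntl at ZT12 was at -1.13 relative to its set mean in 129 mixed WT and at -1.80 in C57BL/6 WT. Livers labelled SIRT6 KO (-1.08) and SIRT1 KO (-1.09) were near the 129 mixed WT at that time. Strain, cohort and any separate normalization cannot be told apart in the contrast of the WT sets.

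Within groups, the 3 arrays came in the same order for Arntl and Npas2 in 10 of 24 groups. These were 1 of 4 groups at ZT0, 4 of 4 at ZT4, 0 of 4 at ZT8, 0 of 4 at ZT12, 3 of 4 at ZT16 and 2 of 4 at ZT20, and no other gene pair was counted. At ZT4, when both genes were falling, arrays of 1 group spanned 0.69 to 1.45 for Arntl and 0.64 to 1.26 for Npas2. At ZT20 Arntl spanned 0.12 to 0.39. The widest span of Arntl, 1.89, was among the arrays labelled SIRT6 KO at ZT12. How far the moment of collection, the animal or the array contributed was not tested.

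Among the other clock genes of the lists, 10 of 14 tested were rhythmic in all 4 sets. Of all genes 10.1% to 23.2% were rhythmic in a single set, and the share rhythmic in all 4 is not given here. Nfil3, a repressor that competes with the PAR bZIP factors, peaked at ZT 20.7 to 21.3 over the sets, with Arntl at 21.2 to 22. Cry1, a repressor of the CLOCK and BMAL1 pair, peaked at ZT 17.8 to 18.5. Of the REV-ERB receptor genes, Nr1d1 peaked at ZT 4.65 to 6.96 with an amplitude of 4.33 to 4.65 and Nr1d2 at ZT 7.21 to 9.85. Among targets of the pair, Dbp peaked at ZT 8.28 to 10.2, Ciart at 9.69 to 11.6, Per3 at 9.78 to 12.0, Tef at 9.90 to 11.5, Per1 at 11.4 to 12.9 and Bhlhe40 at 11.8 to 13.2. The fitted trough of Arntl, which the cosine fixes from its peak alone, was at ZT 9.21, 9.24, 9.51 and 10.01. The order of sets is labelled SIRT6 KO, 129 mixed WT, labelled SIRT1 KO and C57BL/6 WT. The lowest group mean of Arntl was at ZT8 in all 4 sets. In the same order the peak of Nr1d1 lay at ZT 6.23, 4.65, 6.33 and 6.96.

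**Figure D5:**
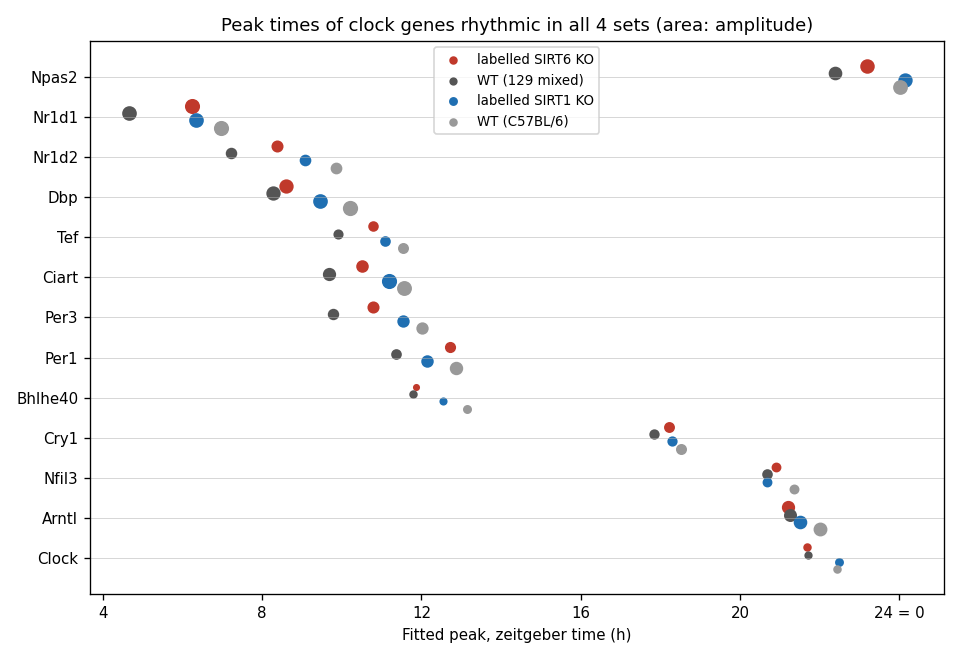
Fitted peak (zeitgeber time in hours) of Arntl, Clock, Npas2 and the 10 other clock genes rhythmic in all 4 sets, 1 point per set, with the point area growing with the fitted amplitude. Arntl, Clock and Npas2 peak between ZT 21.2 and 0.142, and Nr1d1 between ZT 4.65 and 6.96.

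Few genes of the surrounding lists passed a test against WT. Of the E-box repressors (7 tested) 0 were called in either cohort, as were 0 of 12 other bHLH-PAS and partner genes and 0 of 4 NAD genes. Nr1d1, the repressor that acts on all 3 activators, was lower at ZT0 in livers labelled SIRT6 KO than in their WT. Arrays labelled KO read 6.22, 7.89 and 7.24, and WT arrays 10.23, 8.74 and 10.53. The difference was -2.72 ± 0.45 (SE, limma, adjusted p = 0.0062), in a contrast where 0.137% of gene and time pairs were called. At the same time the difference was 0.08 for Arntl and -0.09 for Clock, both with overlapping arrays, and 0.51 for Npas2 without overlap. None of these 3 passed the threshold (limma, adjusted p = 0.989, 0.964 and 0.708). Nr1d1 at ZT0 was below its set mean (8.17) in livers labelled SIRT6 KO but not, on average, in their WT (8.75). Livers labelled SIRT1 KO were also below theirs (8.62, 7.93 and 8.48, set mean 8.80). So were their WT (8.48, 7.84 and 8.03, set mean 8.87). Nr1d1 peaked at ZT 4.65 in WT of the SIRT6 cohort and at ZT 6.23 to 6.96 in the other sets. These peaks were not tested between cohorts. Between labelled SIRT6 KO and WT, 0 of the 3 RORE-binding receptors tested differed in rhythm past the threshold (limma), beside 0.00751% of all genes. Whether the label accounts for the difference at ZT0 was not tested. Of the remaining RORE-binding receptors of the list, 2 were tested and 0 called. Hlf, a PAR bZIP factor, was higher on average in livers labelled SIRT1 KO by 0.21 ± 0.05 (SE, adjusted p = 0.028), 1 of 4 in its list. Btrc, a ubiquitin ligase subunit that recognises PER proteins, was higher in livers labelled SIRT6 KO by 0.22 ± 0.03 (SE, adjusted p = 0.00015), 1 of 15 cofactors and modifiers. These list counts stand beside 2.27% of all genes called on average for the SIRT1 label and 6.61% for the SIRT6 label, and 1 of 15 is near the second of these shares.

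Markers of other liver cells gave 0 calls in both cohorts. The 8 Kupffer cell markers were all higher on average in livers labelled SIRT6 KO (median 0.19, with the mean over markers at 7.99 to 10.63 in arrays labelled KO and 7.63 to 10.34 in WT arrays). They were higher in 0 of 8 in livers labelled SIRT1 KO (median -0.17, with 7.28 to 8.95 in arrays labelled KO and 7.80 to 9.23 in WT arrays). The 7 stellate cell markers were higher in 7 of 7 in livers labelled SIRT6 KO (median 0.07, with 8.00 to 9.14 in arrays labelled KO and 7.85 to 9.11 in WT arrays) and in 6 of 7 in livers labelled SIRT1 KO (median 0.06, with 8.08 to 8.75 and 8.22 to 8.61). Endothelial markers were higher in 3 of 7 and 1 of 7, lymphocyte markers in 4 of 5 and 3 of 5, and bile duct markers in 1 of 3 and 2 of 3 for the SIRT6 and SIRT1 labels. The part of these cell types in the values of the 3 genes was not tested. Serpina1a was the 1 of 8 hepatocyte markers called, lower by 0.12 in livers labelled SIRT1 KO (difference -0.12 ± 0.03, SE, limma, adjusted p = 0.045). Over all genes 6.61% were called on average for the SIRT6 label and 2.27% for the SIRT1 label. At such shares lists of 3 to 8 genes yield few calls, so these counts say little about the cell types.

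Over the 24 group means, each set centred on its own mean, Arntl and Clock had a Pearson r of 0.974, Clock and Npas2 of 0.839 and Arntl and Npas2 of 0.779. These and the following values describe likeness over shared arrays and carry no p. Of the 13308 genes, those most like Arntl were Chka, the first enzyme of phosphatidylcholine synthesis (0.986), Nectin1, an adhesion molecule (0.979), Clock (0.974), Mical2, an actin-oxidising enzyme (0.972), and Pdk4, a kinase that blocks pyruvate oxidation (0.971). Chka peaked at ZT 21.2 to 22 with an amplitude of 2.25 to 2.73. Most opposite were Slc5a6, a vitamin transporter (-0.964), Clmn (-0.945) and Klf13, a zinc finger factor (-0.941).

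Clock was most like Tmie (0.976), Arntl (0.974), Slc16a1, the lactate carrier MCT1 (0.965), Cyp4f17 (0.962) and Mical2 (0.961). Most opposite to it were Slc5a6 (-0.961), Ciart (-0.960) and Klf13 (-0.948). The genes most like Npas2 were none of these, namely Ccdc162 (0.942), Clpx, a mitochondrial chaperone (0.940), Mad2l2 (0.930), Tfpi2 (0.929) and Insig2, a regulator of cholesterol synthesis (0.928). Most opposite were Per3, a target of the CLOCK and BMAL1 pair (-0.962), Gys2, the liver glycogen synthase (-0.953), and Tef, a PAR bZIP factor (-0.947). Insig2 peaked at ZT 22.5 to 23.8 and Clpx at 22.1 to 23.1. Of all these genes, Clmn was rhythmic in 3 of 4 sets and the others in 4, beside 10.1% to 23.2% of all genes in a set. They were picked for likeness to rhythmic genes on the same arrays, so this count is no separate evidence of rhythm.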

How the data were processed

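RNA from 72 liver samples was hybridised to single-colour Affymetrix arrays. Per the submitters' processing notes, Affymetrix Expression Console 1.1.1 and PLIER 2.0 were used. The deposited intensity of each probe set has the range of a linear scale, and the sources used here give neither normalization settings nor a build. All columns were matched to samples by name. The 41345 probe sets held 23521 with 1 symbol, of which the highest-mean one per gene was kept (1082 genes had several), and the lowest 40% of 22180 genes, under 6.00 on the log2(intensity + 16) scale, were left out.

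Group means, 24 h cosines and their differences were fitted with limma 3.58.1 in R 4.3.3, with a trend in the moderation and Benjamini-Hochberg adjustment over all 13308 genes (and over all 6 times together for single times). The threshold was an adjusted p of 0.05. Each cohort was fitted alone, except for the contrasts of WT sets and of the 2 effects. Intervals of amplitude and peak time come from least squares and the delta method, with 15 residual degrees of freedom per set. The steps were tested on simulated data. Precision is limited by how many arrays there are.

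The members and gene lists were chosen with earlier results of these data known. The rule for named genes took the 3 members, list genes past a threshold, clock-list genes rhythmic in all 4 sets, and the 5 most like and 3 most opposite genes of each member. The alternatives were pseudocounts of 1 and 64, array medians centred, quantile normalization, filters at 0 and 60%, weighted arrays, moderation without trend, the replicate block, 1 fit of 72 arrays, F tests over the 6 times, another correction, and each array left out in turn. Tests of the WT time course and of the 2 effects at each time, and a fit with a 12 h term, were added after the data were examined.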

Additional observations from a re-analysis of the deposited data

How the results depend on the processing

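The 12 rhythm calls held under all alternatives and omissions run, and the interval of the lag of Npas2 behind Arntl stayed above 0. The size of the Npas2 amplitude moved more, as its low values lie close to the added constant. Over the alternatives it ran over 3.12 to 4.90 in livers labelled SIRT6 KO and 2.68 to 4.29 in their WT. In livers labelled SIRT1 KO it ran over 2.92 to 4.92, and in their WT over 3.12 to 5.27. Ranks by amplitude are given for the main fit only. Daily averages and their differences stayed short of the threshold throughout, and those near 0 turned sign. With array medians centred, livers labelled SIRT1 KO minus WT gave 0.046 for Clock (adjusted p = 0.552) and the difference of the 2 effects -0.059 for Arntl. With a pseudocount of 64, Npas2 gave -0.024 in the SIRT1 cohort and 0.0096 for the difference of effects. With 1 array left out in turn, Arntl averages ran over -0.038 to 0.12 for the SIRT6 label and -0.051 to 0.069 for the SIRT1 label, with a difference of effects of -0.049 to 0.11. Clock ran over -0.037 to 0.011 for the SIRT1 label. Npas2 ran over -0.11 to 0.00032 for the SIRT6 label and -0.047 to 0.057 for the SIRT1 label. The lag of Clock behind Arntl in 129 mixed WT (0.46 h) had an interval above 0 with medians centred (0.57 h) and in 3 of 18 omissions. Npas2 at ZT16 in the SIRT6 cohort ranged over -1.06 to -0.52 when arrays were left out, with adjusted p of 0.222 to 0.703.

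Replicate numbers were not used to pair samples in the main fits. Same-numbered deviations correlated over 0.1 in 11 of 18 pairs (-0.36 to 0.74) in the SIRT6 cohort. In the SIRT1 cohort they did so in 6 of 18 (-0.28 to 0.37). These counts do not settle whether replicate numbers pair samples. With the replicate block no call of the 3 genes changed, as for Npas2 at ZT16 (-0.85, adjusted p = 0.383), and the SIRT1 single-time count was 1.

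Counts over all genes moved more. Daily averages called were 880 in the SIRT6 cohort (2623 with array weights) and 302 in the SIRT1 cohort (1501 with medians centred, 1044 with weights, 150 at the fewest with 1 array out). Single-time calls were 109 in the SIRT6 cohort (62 with the 60% filter, 259 in 1 fit of 72 arrays, 3293 with weights) and 0 in the SIRT1 cohort (1 with centring or in 1 fit, 368 with weights, up to 6 with 1 array out). Rhythmic genes numbered 1415 in livers labelled SIRT6 KO (480 by F over the 6 times, 683 with the 12 h term), 1349 in their WT (410, 659, and 2565 with weights) and 2440 in C57BL/6 WT (1266 by F). Rhythms differing between WT sets numbered 11 (199 centred, 286 weighted, 7 with 5 coefficients, 7 to 61 with 1 array out), those differing in the SIRT6 cohort 1 (0 to 13), and differing effects 767 (1962 centred, 2439 weighted). The cause of these shifts was not tested. Npas2 has no value under the 60% filter, and with 1 probe set per member no other could be tried.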
